A study of Mus musculus with 11 samples.

Results

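The transcription factor NRF2 and its pathway were followed through 10 genes in the hearts of mouse embryos that lack phosphodiesterase 2A (PDE2A), an enzyme that breaks down the second messengers cAMP and cGMP. The 10 genes were chosen by name. They are Nfe2l2, which encodes NRF2, Keap1, which encodes its inhibitor, and 8 established NRF2 targets (Hmox1, Srxn1, Gclm, Gclc, Nqo1, Txnrd1, Slc7a11 and Osgin1). All 10 were among the 24177 genes tested, out of 55487 gene identifiers in the deposited counts. RNA was read from whole embryonic hearts collected at E14.5, 5 from Pde2A-/- embryos (labelled KO) and 6 from Pde2A+/+ embryos (labelled WT), with no treatment in either group. Both groups belong to the line B6;129P2-Pde2A<tm1Dgen>, in which the gene is disrupted in every tissue of the embryo and not in the heart alone. Each library was stranded and came from a single heart, and its reads on the sense strand of genes numbered from 35865537 to 42835382. The targeted gene, Pde2a (ENSMUSG00000110195), had 0 to 2 counts in each heart of either genotype, so that the genotype labels could not be checked with it. Reads that it shares with an overlapping gene were given to neither, so these counts do not show that WT hearts lack its transcript. Hearts of 1 genotype resembled each other closely across genes, with Pearson's r on the log2 scale from 0.992 to 0.998 among KO hearts and from 0.994 to 0.998 among WT hearts.

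NRF2 is a basic leucine zipper factor that cells hold at a low level at rest. KEAP1 binds it and hands it to the CUL3 ubiquitin ligase, and when oxidants or electrophiles modify reactive cysteines of KEAP1 the new NRF2 protein escapes degradation. It then pairs with a small MAF protein on antioxidant response elements (AREs) in the DNA and raises genes for glutathione synthesis, thioredoxin-dependent repair, quinone reduction and heme breakdown. BACH1, a heme-binding repressor, competes for the same elements. In the heart this pathway is known as a main line of defence against oxidative damage. Most of the control of NRF2 falls on the protein, which RNA counts do not show.

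The ARE core, written TGACNNNGC, was sought on both strands in the promoter windows of the RefSeq table (GRCm38.p6), which run from 250 bases before to 50 bases after a transcript start. Of the 10 genes, 8 had windows in the table, and 4 of these 8 genes (Nfe2l2, Gclm, Srxn1 and Txnrd1) held a match. Counted by window, since Txnrd1 has 3, that was 4 of 10 windows of these genes, against 12.4% of all 32851 windows in the table. The stretches are shown because these letters are what NRF2 and BACH1 are known to bind. They read 5′ to 3′ on the strand of the gene, with the match in capitals:
Nfe2l2, chr2:75704850-75704913, minus strand: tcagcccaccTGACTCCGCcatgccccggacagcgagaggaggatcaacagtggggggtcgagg
Gclm, chr3:122245378-122245476, plus strand: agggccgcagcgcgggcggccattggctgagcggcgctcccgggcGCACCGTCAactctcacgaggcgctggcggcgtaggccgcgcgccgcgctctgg
Txnrd1, chr10:82859069-82859167, plus strand: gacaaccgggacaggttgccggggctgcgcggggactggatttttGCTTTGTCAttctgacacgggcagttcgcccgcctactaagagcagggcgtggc
Srxn1, chr2:152105542-152105570, plus strand: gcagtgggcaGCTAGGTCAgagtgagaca

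The match of Nfe2l2 lies 240 to 232 bases before the start on the strand of the gene, inside an exon that the annotation gives to E030042O20Rik on the other strand. Those of Gclm (134 to 126 bases before the start), Txnrd1 (92 to 84 bases before, in 1 of its 3 windows) and Srxn1 (bases 29 to 37 after the start) read TGACNNNGC on the opposite strand. None of the 4 overlapped a match to TGACTCA (AP-1) or TGACGTCA (CRE), elements with similar letters. A match is a run of letters and not a shown binding site. Of these 4 genes, Nfe2l2, Gclm and Srxn1 were higher in KO hearts and Txnrd1 was not called, as described below.

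The transcript of NRF2 itself and those of 4 of its targets, Hmox1, Srxn1, Gclm and Gclc, were higher in KO than in WT hearts. Those of Keap1, Nqo1, Txnrd1, Slc7a11 and Osgin1 did not pass the test, and no member was lower. Calls rest on the quasi-likelihood test of edgeR at an adjusted p below 0.05, with the adjustment of Benjamini and Hochberg taken over all genes tested, and levels are given as CPM, the counts of a heart scaled to a common library size after TMM normalization. The 5 of 10 genes called higher stand beside 8.93% of all genes tested, and the 0 called lower beside 5.67%. With a stricter filter on low counts (filterByExpr) these shares were 13.8% and 11.2% of 16853 genes, and 5 members were higher and 0 lower. In the same 5 genes every KO heart lay above every WT heart, as in 5.38% of all genes, and in 0 members was every KO heart below every WT heart, as in 3.11%. Only Hmox1 of the members also changed at least 2-fold, a step that 2.21% of all genes reached upwards and 0.372% downwards. The median log2 fold change of the 10 members was 0.55, against -0.02 over all genes tested. The 10 genes were picked with earlier results of these data known, so these shares describe the members and are not a test of the pathway.

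**Figure D1:**
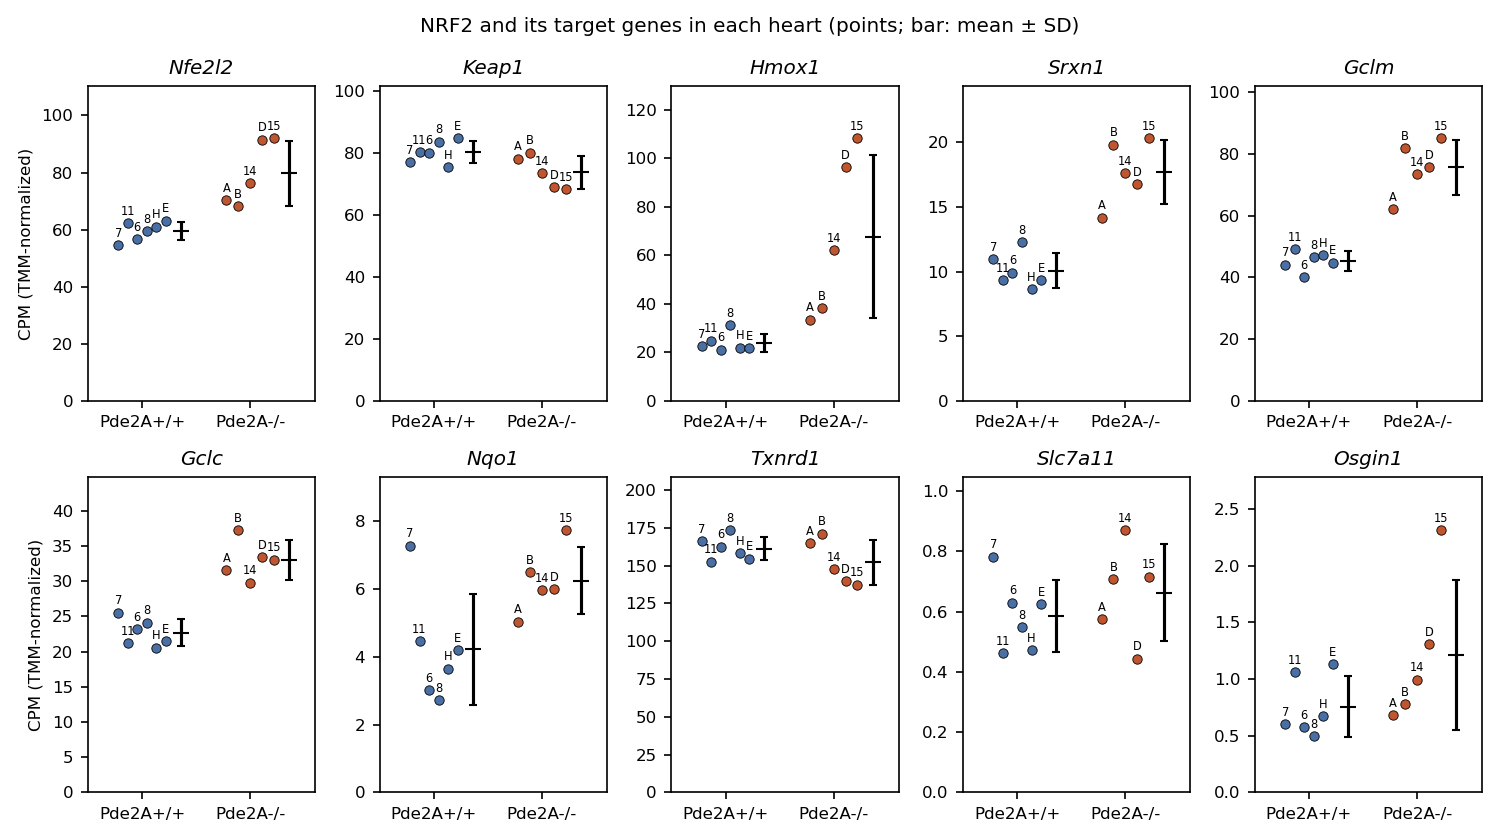
TMM-normalized CPM (linear axis from 0, with its own scale for each gene) of the 10 genes in the 6 Pde2A+/+ (WT, blue) and 5 Pde2A-/- (KO, red) hearts, with 1 point per heart marked by its replicate name and a bar for the mean ± SD of each group. The KO hearts lie above all WT hearts for Nfe2l2, Hmox1, Srxn1, Gclm and Gclc, and the groups overlap for Keap1, Nqo1, Txnrd1, Slc7a11 and Osgin1.

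Nfe2l2 (ENSMUSG00000015839, chr2:75675513-75704641, minus strand, GRCm38) measured 70.3, 68.3, 76.4, 91.6 and 91.9 CPM in KO hearts A, B, 14, D and 15. In the 6 WT hearts it ran from 54.6 through a median of 60.3 to 63.1 CPM. Every KO heart was thus higher, hearts D and 15 by the most, and the WT hearts lay close together. The means were 79.7 ± 11.4 CPM (SD, n = 5) and 59.5 ± 3.31 CPM (SD, n = 6), a 1.34-fold difference with a log2 fold change of 0.42 (SE 0.08, 95% confidence interval 0.24 to 0.60) and an edgeR adjusted p of 0.00579.

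Keap1 (ENSMUSG00000003308, chr9:21229730-21239361, minus strand), whose product marks NRF2 for degradation, moved little. It measured 78.2, 80.1, 73.5, 69.0 and 68.3 CPM in KO hearts A, B, 14, D and 15, and from 75.5 through a median of 80.2 to 84.7 CPM in WT hearts. Hearts 14, D and 15 were below all WT hearts and the other two were within their range. The log2 fold change was -0.12 (SE 0.05, 95% confidence interval -0.24 to -0.0049) with an edgeR adjusted p of 0.147, so the difference did not pass the test over all genes, and its interval does not reach a fall as large as the rise of Nfe2l2.

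The balance of activator to inhibitor transcript was compared within each heart, since a ratio inside a library does not depend on its scaling. The log2 ratio of Nfe2l2 to Keap1 CPM was -0.15, -0.23, 0.06, 0.41 and 0.43 in KO hearts A, B, 14, D and 15, and between -0.50 and -0.31 in WT hearts. All KO hearts were above all WT hearts, and D and 15 were again the highest. The mean ratio was 0.10 ± 0.31 (SD, n = 5) against -0.43 ± 0.08 (SD, n = 6), a difference of 0.53 on the log2 scale. Its p in the exact permutation test, two-sided, was 0.00216, the smallest that the 462 splits of 5 against 6 hearts can give, and 0.00649 adjusted over the 3 ratios tested.

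Hmox1 (ENSMUSG00000005413, chr8:75093621-75100589, plus strand) encodes heme oxygenase 1, which opens the heme ring and releases iron, carbon monoxide and biliverdin. It had the largest difference of the 10 genes and also the widest spread among KO hearts, with 33.5, 38.3, 62.3, 96.2 and 108.2 CPM in hearts A, B, 14, D and 15. The WT hearts ran from 21.2 through a median of 22.2 to 31.1 CPM, so that hearts A and B were just above the highest WT heart while D and 15 were several times above it. The means were 67.7 ± 33.6 CPM (SD, n = 5) and 23.9 ± 3.78 CPM (SD, n = 6), a 2.83-fold difference with a log2 fold change of 1.502 (SE 0.27, 95% confidence interval 0.93 to 2.08) and an edgeR adjusted p of 0.00341. With 1 heart left out at a time the log2 fold change stayed between 1.27 and 1.68 and the call was kept.

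Gclm and Gclc encode the modifier and the catalytic subunit of glutamate-cysteine ligase, the enzyme that sets the rate of glutathione synthesis. Gclm (ENSMUSG00000028124, chr3:122245557-122270732, plus strand) measured 62.1, 81.8, 73.4, 75.6 and 84.9 CPM in KO hearts A, B, 14, D and 15, and from 39.95 through a median of 45.7 to 49.1 CPM in WT hearts. The groups were well apart, with heart A lowest and heart B, unlike for Hmox1, among the highest. The means of 75.5 ± 8.84 CPM (SD, n = 5) and 45.3 ± 3.15 CPM (SD, n = 6) gave a log2 fold change of 0.74 (SE 0.08, 95% confidence interval 0.57 to 0.90), 1.67-fold, with an edgeR adjusted p of 4.9e-05, the lowest among the 10 genes. A pseudogene, Gm6061, overlaps Gclm on the same strand, and reads on both were given to neither.

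Gclc (ENSMUSG00000032350, chr9:77754535-77794485, plus strand) measured 31.6, 37.3, 29.8, 33.4 and 33.1 CPM in KO hearts A, B, 14, D and 15, and from 20.6 through a median of 22.3 to 25.6 CPM in WT hearts. Here heart B was the highest and the KO hearts differed little among themselves. The means of 33.0 ± 2.78 CPM (SD, n = 5) and 22.7 ± 1.93 CPM (SD, n = 6) gave a 1.46-fold difference, a log2 fold change of 0.54 (SE 0.07, 95% confidence interval 0.39 to 0.69) and an edgeR adjusted p of 3.43e-04. The log2 ratio of Gclm to Gclc ran from 0.98 to 1.36 in KO hearts and from 0.79 to 1.21 in WT hearts, a difference of 0.19 with p = 0.102 in the exact permutation test, so an unequal change of the subunits was not shown.

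Slc7a11 (ENSMUSG00000027737, chr3:49892526-50443614, minus strand) encodes xCT, the transporter that brings in cystine for glutathione. It was scarcely read in these hearts, with 16 to 35 counts per heart. The KO hearts A, B, 14, D and 15 measured 0.574, 0.708, 0.871, 0.444 and 0.716 CPM, and the WT hearts ran from 0.462 through a median of 0.587 to 0.782 CPM. The groups overlapped on both sides. The log2 fold change of 0.18 (SE 0.21) had a 95% confidence interval from -0.28 to 0.63 and an edgeR adjusted p of 0.627, so that a difference of the size seen for Gclc could not be told from none at this depth. Its partner Slc3a2, the heavy chain that carries xCT and other amino acid transporters to the membrane, was far more abundant and higher in KO hearts, with 87.9 ± 19.7 CPM (SD, n = 5) against 62.7 ± 3.35 CPM (SD, n = 6) and a log2 fold change of 0.49 (SE 0.12, edgeR adjusted p = 0.0166). Without KO heart D the adjusted p of Slc3a2 was 0.0530.

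Srxn1 and Txnrd1 serve the repair of oxidized protein thiols. Srxn1 (ENSMUSG00000032802, chr2:152105516-152111376, plus strand) encodes sulfiredoxin, which restores overoxidized peroxiredoxins, and measured 14.2, 19.8, 17.6, 16.8 and 20.3 CPM in KO hearts A, B, 14, D and 15. In WT hearts it ran from 8.65 through a median of 9.62 to 12.3 CPM, with no overlap. The means of 17.7 ± 2.48 CPM (SD, n = 5) and 10.1 ± 1.34 CPM (SD, n = 6) gave the second largest difference of the called members, 1.76-fold, with a log2 fold change of 0.82 (SE 0.11, 95% confidence interval 0.58 to 1.05) and an edgeR adjusted p of 3.84e-04.

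Txnrd1 (ENSMUSG00000020250, chr10:82833951-82897712, plus strand) encodes the cytosolic thioredoxin reductase and was the most abundant of the 10 genes in CPM. It measured 164.8, 171.2, 147.6, 139.8 and 137.6 CPM in KO hearts A, B, 14, D and 15, and from 152.7 through a median of 160.4 to 173.6 CPM in WT hearts. Hearts A and B were within the WT range and hearts 14, D and 15 below it. The log2 fold change of -0.08 (SE 0.06) had a 95% confidence interval from -0.22 to 0.05 and an edgeR adjusted p of 0.405. The interval leaves out rises of the size seen for Srxn1, Gclm or Gclc. Reads shared with Eid3, which overlaps Txnrd1 on the same strand, were counted on neither gene.

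Nqo1 (ENSMUSG00000003849, chr8:107388225-107403206, minus strand) encodes a quinone reductase often read as the classical NRF2 target. It measured 5.04, 6.49, 5.97, 6.00 and 7.74 CPM in KO hearts A, B, 14, D and 15. Of the WT hearts, replicate 7 had 7.28 CPM and the other 5 from 2.72 to 4.46 CPM. All KO hearts were thus above 5 of the 6 WT hearts, but only heart 15 was above WT heart 7. The log2 fold change was 0.57 (SE 0.22, 95% confidence interval 0.10 to 1.04) with an edgeR adjusted p of 0.0970. Without WT heart 7 it was 0.79 with an adjusted p of 0.00757, DESeq2 on all hearts gave an adjusted p of 0.0397, and edgeR with the sex of the embryo as a covariate gave 0.0417. The same WT heart also had the highest level of the leukocyte gene Ptprc, 16.6 CPM against 3.53 to 4.62 CPM in the other WT hearts and 8.14 to 10.4 CPM in KO hearts. The 14 macrophage markers, which include Ptprc, did not stand out there. They summed to 161.6 CPM in WT heart 7, within the WT range of 130.8 to 203.9 CPM. Ptprc was picked after its values were seen, and its part in the level of Nqo1 was not tested.

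Osgin1 (ENSMUSG00000074063, chr8:119434124-119446256, plus strand) encodes an oxidative stress induced growth inhibitor and was low, with 19 to 84 counts per heart. The KO hearts A, B, 14, D and 15 measured 0.679, 0.779, 0.995, 1.30 and 2.31 CPM, and the WT hearts ran from 0.496 through a median of 0.635 to 1.13 CPM. Only hearts D and 15 were above all WT hearts. The log2 fold change was 0.68 (SE 0.33, 95% confidence interval -0.03 to 1.39) with an edgeR adjusted p of 0.183, and it stood at 0.31 without KO heart 15. For the log2 ratio of Hmox1 to Nqo1, which ran from 2.56 to 4.005 in KO hearts and from 1.63 to 3.52 in WT hearts, the difference of 0.73 had p = 0.0779 in the exact permutation test and 0.102 adjusted over the 3 ratios.

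**Figure D2:**
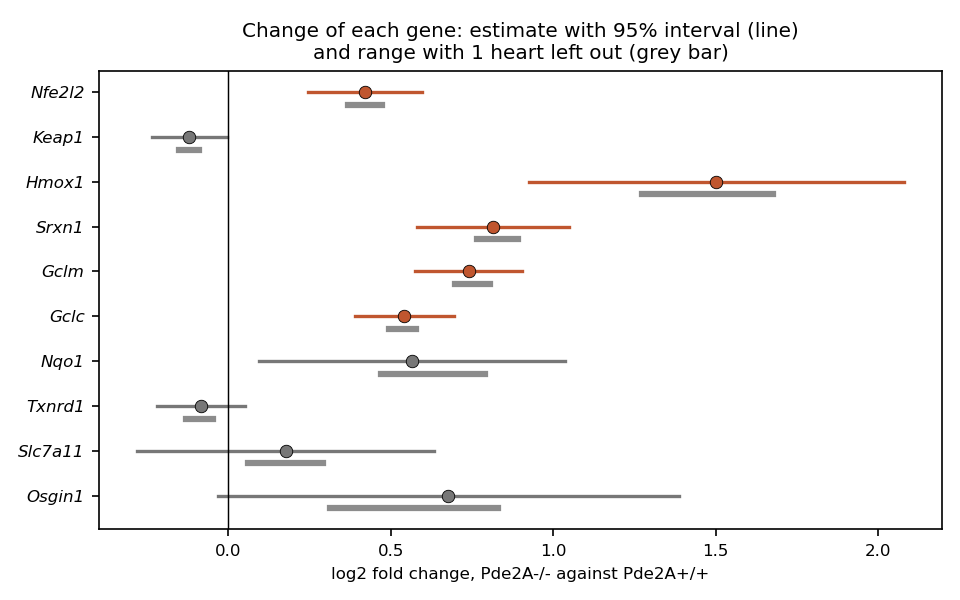
Log2 fold change of each of the 10 genes, Pde2A-/- over Pde2A+/+ (point), with its 95% confidence interval from edgeR (line, red for called genes and grey for the others) and the range of the estimate with 1 heart left out at a time (grey bar below it). The intervals of Nfe2l2, Hmox1, Srxn1, Gclm and Gclc lie above 0, and so does that of Nqo1, which with Keap1 on the other side of 0 did not pass the adjustment over all genes.

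Levels can be set against each other between genes only per length, here as CPM per kilobase of annotated exon. In WT hearts the order was Txnrd1 (22.8 ± 1.10), Keap1 (17.1 ± 0.762), Nfe2l2 (15.7 ± 0.873), Hmox1 (13.6 ± 2.16), Gclm (7.19 ± 0.500), Gclc (6.02 ± 0.512), Srxn1 (3.58 ± 0.476), Nqo1 (2.72 ± 1.06), Osgin1 (0.282 ± 0.101) and Slc7a11 (0.0421 ± 0.0086), each a mean ± SD over 6 hearts in CPM per kilobase. The ranges of Keap1 and Nfe2l2, of Nfe2l2 and Hmox1, of Keap1 and Hmox1, of Gclm and Gclc, and of Srxn1 and Nqo1 overlapped. In WT heart 8 Keap1 stood at 17.83 and Hmox1 at 17.79 CPM per kilobase. Within every WT heart Gclm was above Gclc, and Keap1 was above Nfe2l2, though hardly so in heart H (16.088 against 16.086). Nfe2l2 was below Hmox1 in WT heart 8 and Srxn1 below Nqo1 in WT heart 7, so these neighbours were not ordered in every heart. The length used for Slc7a11 includes several annotated models, 13922 exon bases in all. In KO hearts the means were 38.7 ± 19.2 CPM per kilobase for Hmox1 (SD, n = 5), 21.5 ± 2.13 for Txnrd1, and for Nfe2l2 20.99 ± 3.005 and for Keap1 15.7 ± 1.13. Hmox1 was above Txnrd1 in hearts 14, D and 15 and below it in hearts A, with 19.1 against 23.3 CPM per kilobase, and B, with 21.9 against 24.2. The KO values of Txnrd1 and Nfe2l2 differed by less than their SD.

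The called members did not rise in the same order of hearts. Hmox1 and Nfe2l2 were highest in KO hearts D and 15 and lowest in A and B, whereas Srxn1, Gclm and Gclc were higher in B than in D, with Srxn1 and Gclm lowest in A and Gclc lowest in 14. The genes of other lists divided the same hearts in different ways. Hypoxia genes, of which 9 of 10 were called higher (Ndrg1 by 2.31, Egln3 by 1.98 and Adm by 1.59 on the log2 scale), summed to 2595 CPM in A, 3457 in B, 4367 in 14, 4503 in D and 5441 in 15, against 2289 to 2752 in WT hearts. Their heart order is that of Hmox1, although their sum in heart A was within the WT range. The 9 of 10 called higher stand beside 8.93% of all genes tested. In 1 of these 10 genes every KO heart lay above every WT heart, as in 5.38% of all genes. The 8 erythroid markers other than globins summed to 462.5 CPM in A, 937.2 in B, 744.4 in 14, 704.0 in D and 761.7 in 15, with heart B highest as for Gclc, and to 123.9 to 513.6 in WT hearts. With globins included, the 15 erythroid markers summed to 6037 to 9452 CPM in KO hearts, highest in D. The WT hearts ran from 4704 to 16615 CPM in that sum, so the groups overlapped. Whether the hypoxia genes or the erythroid genes have a part in the rise of the NRF2 genes was not tested.

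**Figure D3:**
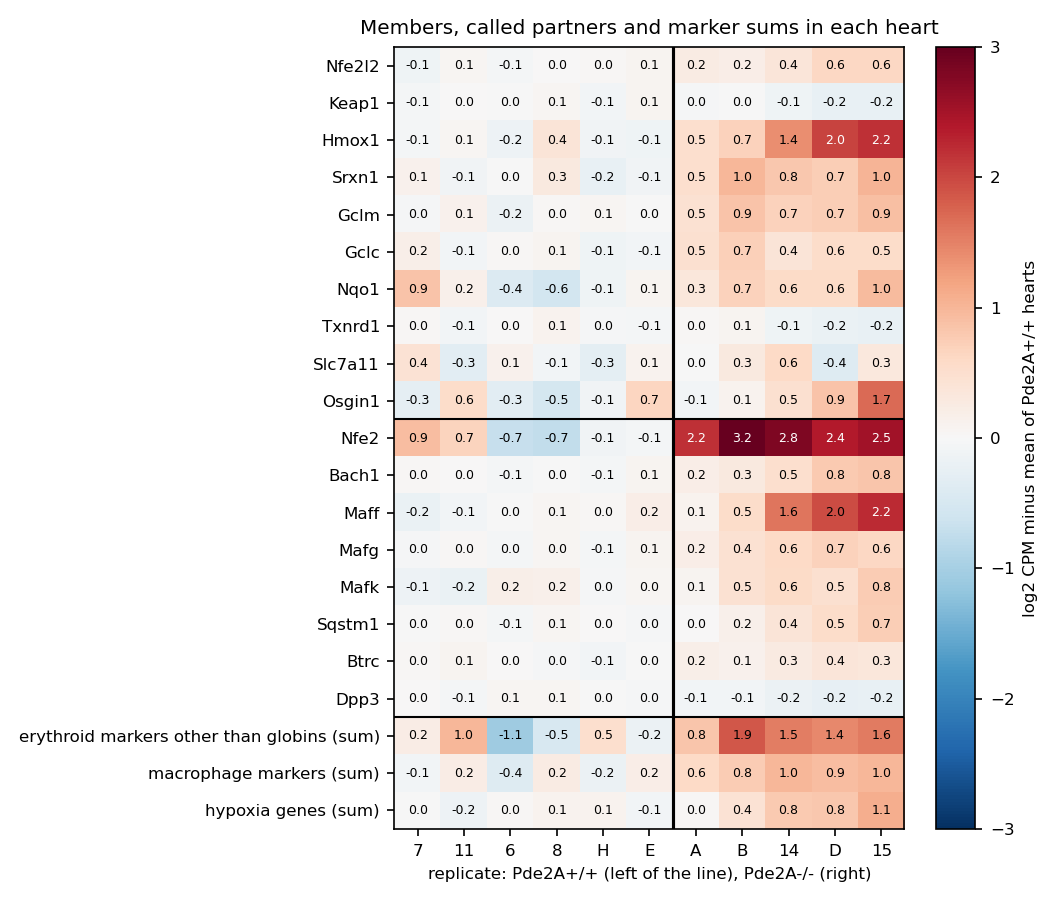
Heat map of log2 CPM in each heart minus the mean over the 6 Pde2A+/+ hearts, with 1 column per heart, and rows for the 10 members, the 8 called partners and regulators, and the summed CPM of 3 lists (colours end at 3 above and below 0). Hmox1, Maff and Bach1 are highest in KO hearts D and 15. Gclc, Nfe2 and the sum of erythroid markers other than globins are highest in KO heart B, and Srxn1 and Gclm are higher there than in D.

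Marker genes showed how far the make-up of the tissue moved beside these genes. In whole hearts, fewer cells of a type and less RNA per cell cannot be told apart. The counts of calls below stand beside 8.93% of all genes tested called higher and 5.67% called lower. All 14 cardiomyocyte markers were read, 5 of them lower and 0 higher in KO hearts, and they summed to 39691 to 45591 CPM in KO and 39535 to 53476 CPM in WT hearts. Of 14 macrophage markers 12 were called higher (Fcgr3 by 1.43, C1qc by 1.12 and C1qb by 1.001 on the log2 scale), with sums of 261.9 to 344.2 CPM in KO and 130.8 to 203.9 CPM in WT hearts and none of the 14 at 0 in any heart. Macrophages are known for high heme oxygenase 1. Endothelial markers were higher in 3 of 8 cases and fibroblast and epicardial markers in 2 of 9, with 0 lower in either list. The endothelial markers summed to 1462.5 to 1651.9 CPM in KO and 1195.4 to 1434.3 CPM in WT hearts, with no overlap. The fibroblast and epicardial markers summed to 6534 to 10891 CPM in KO and 5601 to 10869 CPM in WT hearts, and overlapped. Of 15 erythroid markers 7 were higher (Rhag by 4.40, Klf1 by 4.10 and Gata1 by 3.45 on the log2 scale) and 1, the adult globin Hbb-bt, was lower by 1.43, with none of them at 0 in any heart. The part of these cells in the levels of Hmox1, Nfe2l2 and the other members was not tested.

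The 6 liver markers, which a heart should lack, summed to 36.1 CPM in KO heart D and to 41.8, 35.0 and 109.1 CPM in WT hearts 11, H and E, against 1.65 to 2.95 CPM in the other 7 hearts. Among those 7 hearts alone (KO A, B, 14 and 15, WT 7, 6 and 8), Srxn1, Gclm and Gclc were called higher, with log2 fold changes of 0.70, 0.79 and 0.44, beside 2.13% of 22624 genes. Nfe2l2 and Hmox1 differed by 0.43 and 1.28 on the log2 scale and were not called there (edgeR adjusted p = 0.0827 and 0.130). This comparison was chosen after the data had been seen, and it has fewer hearts. The part of liver RNA in the levels was not tested.

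The proteins that work with NRF2 or on it were read in 14 further genes, of which 7 were higher in KO hearts, 1 was lower and 6 were not called, beside 8.93% of all genes higher and 5.67% lower. Over the 14 genes the median difference was 0.21 on the log2 scale. Its DNA-binding partners, the small MAF proteins, were all higher. Maff measured 33.5 ± 18.3 CPM (SD, n = 5) against 11.8 ± 1.13 CPM (SD, n = 6), a log2 fold change of 1.501 (SE 0.30, edgeR adjusted p = 0.00742), although KO heart A, at 12.7 CPM, was within the WT range. Mafg measured 67.5 ± 8.63 against 47.1 ± 1.98 CPM, a log2 fold change of 0.52 (SE 0.08, edgeR adjusted p = 7.66e-04) with no overlap, and Mafk differed by 0.48 (SE 0.11, edgeR adjusted p = 0.0116).

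Bach1, the repressor that holds the same elements, was higher too. It measured 67.6, 72.1, 83.2, 100.01 and 104.1 CPM in KO hearts A, B, 14, D and 15 and 55.8 to 61.8 CPM in WT hearts, in the order of hearts seen for Hmox1, and its log2 fold change was 0.55 (SE 0.10, edgeR adjusted p = 0.00406). Nfe2, a relative of NRF2 that is known from erythroid cells and platelets, had the largest change on this list. It measured 15.3 ± 4.26 CPM (SD, n = 5) against 2.66 ± 1.28 CPM (SD, n = 6), a log2 fold change of 2.52 (SE 0.29, edgeR adjusted p = 1.09e-04). Heart B was highest at 21.9 CPM, as in the sum of the erythroid markers other than globins.

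Among the regulators of NRF2 stability, Sqstm1, whose product p62 draws KEAP1 into autophagy, measured 234.9 ± 48.2 CPM (SD, n = 5) against 178.7 ± 5.41 CPM (SD, n = 6), a log2 fold change of 0.39 (SE 0.11, edgeR adjusted p = 0.0262). This call was lost without KO heart 14, D or 15 or WT heart 6, with adjusted p up to 0.0796. Btrc, which encodes the F-box protein of a second route of NRF2 degradation, was higher by 0.26 (SE 0.05, edgeR adjusted p = 0.00609). Dpp3, whose product can occupy the NRF2 site of KEAP1, was lower by 0.16 (log2 fold change -0.16, SE 0.05, edgeR adjusted p = 0.0395), and its call was lost in 9 of 19 alternatives. Cul3 and Rbx1 of the ligase that KEAP1 serves, the kinase Gsk3b, the relatives Nfe2l1 and Nfe2l3, and Bach2 were not called. Of these, Rbx1 was called lower in 7 of 19 alternatives and the others in none.

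**Figure D4:**
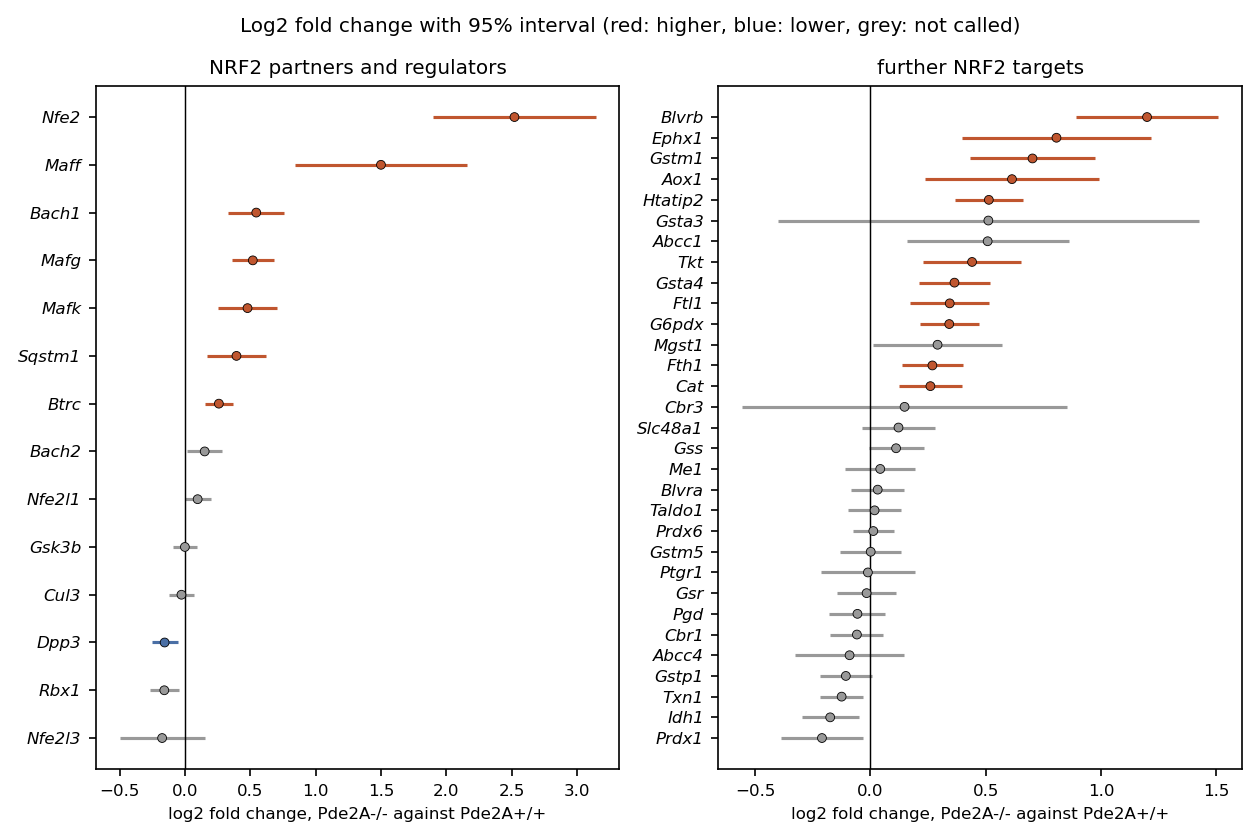
Log2 fold change, Pde2A-/- over Pde2A+/+, of the NRF2 partners and regulators (left) and of the further NRF2 targets (right), ordered by size, with 95% confidence intervals from edgeR (red for called higher, blue for called lower, grey for not called). Nfe2 and Maff differ most among the partners and Blvrb among the targets, and Gpx2, with 10 counts or fewer in every heart, is left out.

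Beyond the 8 targets above, 32 further genes known as NRF2 targets were read, and 11 were higher in KO hearts, 0 lower and 21 not called, beside 8.93% and 5.67% of all genes, with a median log2 fold change of 0.12. In 6 of 19 alternatives 1 to 3 of them (Idh1, Txn1 or Prdx1) were called lower. Of the 5 genes for iron storage and heme breakdown 3 were higher, namely Blvrb, Fth1 and Ftl1. Blvrb, a biliverdin reductase that is also abundant in red cells, measured 35.7, 59.3, 54.4, 53.6 and 53.4 CPM in KO hearts A, B, 14, D and 15 and 17.0 to 30.4 CPM in WT hearts, and was the only further target past 2-fold, with a log2 fold change of 1.199 (SE 0.14, edgeR adjusted p = 1.63e-04). The ferritin chains Fth1 and Ftl1, which hold the iron that heme oxygenase sets free, differed by 0.27 and 0.34 on the log2 scale.

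Of 11 genes for glutathione use and export 2 were higher. These were the transferases Gstm1, with 26.7 ± 6.20 CPM (SD, n = 5) against 16.4 ± 1.16 CPM (SD, n = 6) and a log2 fold change of 0.70 (SE 0.13, edgeR adjusted p = 0.00349), and Gsta4, with 0.36. Gstm1 has close paralogs with which it may share reads. Of the 4 genes for thioredoxin, peroxiredoxins and catalase only Cat was called, at 0.26. Txn1 (-0.12) and Prdx1 (-0.21) did not pass the test with all hearts, and were called lower in 4 and 2 of 19 alternatives. Of 6 genes of NADPH supply Tkt (0.44) and G6pdx (0.34) of the pentose phosphate pathway were higher. Of 6 enzymes that act on carbonyls, epoxides and aldehydes 3 were higher. Htatip2 had the steadiest difference of these, with 15.2 ± 1.11 CPM (SD, n = 5) against 10.7 ± 0.665 CPM (SD, n = 6) and a log2 fold change of 0.51 (SE 0.07, edgeR adjusted p = 3.79e-04). Ephx1 (0.81) lost its call without KO heart D, and Aox1 (0.61) lost it in 7 of 19 alternatives. Blvrb, Ephx1, Gstm1, Aox1, Htatip2 and Tkt are the 6 largest called changes of the 32, and the other genes of this list were named after their values were seen.

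Several genes of the cystine and glutathione supply also answer to ATF4, the factor of the amino acid and integrated stress response, and 14 ATF4-responsive genes were therefore read beside them. Of these 7 were higher and 2 were lower, beside the same 8.93% and 5.67% of all genes. Chac1, which encodes an enzyme that breaks down glutathione, differed by 1.605 on the log2 scale (SE 0.39, edgeR adjusted p = 0.0173), Trib3 by 1.496 (SE 0.28, edgeR adjusted p = 0.00479) and Ddit3, which encodes CHOP, by 0.96 (SE 0.22, edgeR adjusted p = 0.0147). Without KO heart 14 the adjusted p of Chac1 was 0.0513. Trib3 was highest in KO heart 15, at 13.4 CPM, and lowest in heart A, at 3.44 CPM, which was within the WT range. The genes lower in KO hearts were Psat1 (-0.40) and Phgdh (-0.39) of serine synthesis. Psat1 kept its call in 19 of 19 alternatives and Phgdh in 12, with adjusted p up to 0.0944, and it lost it without KO heart 14, D or 15, without WT heart 11, 6 or 8 and with naming style as a covariate. Atf4 itself was not called, with a log2 fold change of 0.12.

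Some hearts are named by letters (KO A, B and D, WT H and E) and the others by numbers (KO 14 and 15, WT 7, 11, 6 and 8), and the labels do not say what the styles mean. Among the number-named hearts alone, the same 5 members were called, beside 10.4% of 22191 genes called higher, with log2 fold changes of 0.53 for Nfe2l2, 1.77 for Hmox1, 0.83 for Srxn1, 0.82 for Gclm and 0.42 for Gclc. The letter-named hearts alone gave 0.30, 1.36, 0.91, 0.67 and 0.69 for the same genes, all in the same direction, and only Gclc was called (edgeR adjusted p = 0.0474), in a comparison of 3 against 2 hearts that called 86 of 21466 genes higher, 0.401%. Keap1 differed by -0.18 and -0.08 in the number-named and the letter-named hearts. By the counts of Xist, 2 of 5 KO and 1 of 6 WT hearts were female, and with sex as a covariate the 5 called members kept their calls.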

How the data were processed

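Stranded poly(A) libraries of 11 embryonic hearts, 1 per heart, had been sequenced from single ends. The authors mapped the reads to GRCm38 (mm10) with STAR, whose version is not given in the sources used here, and deposited raw counts per gene, without normalization, on both strands together and on each strand. A read on more than 1 gene is in no count. Reads on no gene, from 19.6% to 22.4% per heart, stayed out of library sizes.

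Of the strand columns, the one that held most reads was taken. Gene names and positions came from GENCODE M21, which held 55227 of the 55487 identifiers. Genotype and replicate names came from the labels. Genes under 10 counts in the sum of all hearts were dropped, counts were normalized by TMM, and the genotypes were compared in edgeR 4.0.16 (R 4.3.3) by the quasi-likelihood test without covariates, adjusted over 24177 genes by Benjamini-Hochberg. The 3 log2 ratios were compared by the exact permutation test, two-sided. CPM per kilobase divides by the union of annotated exons. Promoter windows came from RefSeq. The test across genes was tested on simulated data. Tables were made in Python 3.11.15 with pandas 2.3.3. Squared differences between hearts of a genotype were 17.8 to 84.2 times those from counting alone, so depth was not the main error for well-read genes.

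The alternatives, 1 at a time, were DESeq2 1.42.0, DESeq2 size factors, filterByExpr, no filter, both strands, no globin genes, naming style or Xist-based sex as a covariate, and each heart left out. Fits on hearts of 1 naming style, and on hearts whose liver markers summed to under 10 CPM, were added after the data had been seen. The 10 members and all lists were chosen with earlier results of these data known. The rule for named genes took the members, up to 6 of the largest called changes among partners and further targets, up to 3 in each other list, and every partner or regulator by count. The other genes named from these lists, such as Txn1, Prdx1, Slc3a2, Psat1, Phgdh, Atf4, Ptprc and Hbb-bt, were chosen after their values were seen. Liver markers were read as a check for other tissue, and 1 of 16 erythroid symbols was not in the annotation.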

Additional observations from a re-analysis of the deposited data

Results flagged for a closer look

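Within the WT hearts, Hmox1 stood apart in 1 library. Replicate 8 had 31.1 CPM, while the other 5 WT hearts lay between 21.2 and 24.8 CPM, a gap past the 95% critical value of Dixon's test for 6 samples. Of 26 groups of hearts looked at in this way it was the 1 found, and chance gives about 1 in 20. With WT replicate 8 in place, all 5 KO hearts were still above it.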

How the results depend on the processing

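Nfe2l2, Hmox1, Srxn1, Gclm and Gclc kept their direction and their call in all 19 alternatives planned, the 11 fits without 1 heart included, and Keap1, Txnrd1, Slc7a11 and Osgin1 were called in none of them. Nqo1 was called in 3 of 19 (DESeq2, sex as a covariate and without WT replicate 7). The number of members called higher was 5 to 6 with 1 heart left out, that of partners and regulators called in either direction was 6 to 9, and that of further targets 9 to 15. Over the 19 alternatives 9 to 12 further targets were higher and 0 to 3 lower, and 6 to 7 partners and regulators higher and 0 to 2 lower. Restricted to the letter-named hearts, chosen after the data had been seen, 1 member was called higher and the log2 fold change of Txnrd1 turned from -0.08 to 0.0153. There Nfe2l2, Hmox1, Srxn1 and Gclm had edgeR adjusted p of 0.485, 0.313, 0.0726 and 0.0844, with fewer hearts in the fit. Among the 7 hearts low in liver markers, also chosen after the data had been seen, 3 members were called higher, and Nfe2l2 and Hmox1 were not. The calls over all genes moved more. With 1 heart left out, 1288 to 2887 genes were higher, against 2160 with all hearts, and 414 to 2165 were lower, against 1372. Without KO replicate 14, D or 15 the genes called higher numbered 1408, 1288 and 1381 and those called lower 450, 414 and 537. Without KO replicate A 2165 were lower, and without WT replicate 7, 6, 8 or H 847, 599, 776 and 833. DESeq2 called 2354 genes lower. The cause of these shifts was not tested. The 3 log2 ratios kept their direction, and their side of the threshold by the adjusted p, in all 12 alternatives each. Without WT replicate 8, Hmox1 to Nqo1 had p = 0.0397 in the exact permutation test before adjustment and 0.0595 after it. No paired analysis was possible because the KO and WT hearts share no replicate names. Slc7a11 and Osgin1 were limited by low counts, and Pde2a could not be read.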

Other observations

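The genes whose levels over the 11 hearts lay nearest to those of Nfe2l2, by the root mean square difference of log2 CPM after subtracting each gene's mean over WT hearts, were Fbxo30 (0.0511), Tmem170b (0.0518), Rnf141 (0.0541), Shroom2 (0.0618) and Zfp655 (0.0631), among 14023 genes whose mean reached 1 CPM. Nearest to Hmox1 were Trib3 (0.196), Slc16a6 (0.199), Ero1l (0.206), Ciart (0.211) and Maff (0.221), of which Trib3 and Maff are on the lists of ATF4-responsive genes and of NRF2 partners. These hearts share their genotype groups, so the likeness is a description.

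The 6 liver markers had a median log2 fold change of -2.002 between the genotypes, and none of them was called with all hearts. Alb and Afp were called lower without KO replicate D (edgeR adjusted p = 0.0463 and 0.0481), and Apoa1 with naming style as a covariate (0.0312).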
